A study of Mus musculus with 4 samples.

Results

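The genes described here are 10 RNA-binding regulators of alternative splicing in muscle, namely Rbm20, Rbm24, Rbm38, Mbnl1, Mbnl2, Mbnl3, Celf1, Celf2, Rbfox2 and Qk. They were chosen by name, with earlier results of these data known. Each was read from its transcript entry with the highest summed raw count over the 4 libraries. All 10 had a row among the 20701 gene symbols of the deposited transcript table, and all 10 were among the 12715 genes with enough counts to be tested. The libraries are RNA-Seq of cardiac progenitor cells (CPCs) derived from mouse embryonic stem cells of the line E14 Tg(Nkx2-5-EmGFP), which carry a green fluorescent reporter of the cardiac gene Nkx2-5, sorted for the reporter at day 5 of differentiation. There were 2 control libraries and 2 libraries of Isl1-/- cells, here called Isl1_KO, in which CRISPR/Cas9 had disrupted Isl1, a LIM-homeodomain factor of the second heart field. All 4 carry the reporter and went through the same sort, but the sorted cells differed in progenitor genes. Nkx2-5 itself was at 21.1 and 19.8 CPM (counts scaled to a common effective library size) in control and 4.77 and 4.34 CPM in Isl1_KO (log2 fold change -2.16, SE 0.154, adjusted p 0.00703 in edgeR), and of 6 progenitor genes 5 fell, namely Isl1, Nkx2-5, Tbx5, Mef2c and Hand2, while Gata4 did not pass the threshold. Each library of a group came from a different clone, so the p-values measure the spread between these clones, and an effect of clone picking cannot be told apart from that of the genotype.

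Alternative splicing decides which exons of a gene enter its mature messenger RNA, and striated muscle relies on it more than most tissues do. Rbm20 represses inclusion of exons of titin and of calcium-handling genes, and Rbm24 promotes inclusion of muscle exons and is needed to build sarcomeres. Muscleblind (Mbnl) and CELF proteins act against each other on many of the same exons during heart maturation, while Rbfox and Quaking proteins mark further exons from short sequence motifs in the neighbouring introns.

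The Isl1 transcript followed the labels, at 309 and 326 reads in control against 17 and 24 reads in Isl1_KO (log2 fold change -4.39 with SE 0.212 and adjusted p 0.00277 in edgeR). Without control replicate 1 the value was -4.40 and without control replicate 2 it was -4.37, past the threshold of 0.05 in neither fit. The libraries held between 8821517 and 13186109 counts with 1 entry per gene, and the Isl1_KO libraries were the deeper ones. Of the 10 cardiomyocyte markers listed for this comparison, 9 were tested and all 9 were lower in Isl1_KO at an adjusted p under 0.05. Their summed level was 1952 and 2028 CPM in control and 123 and 72.9 CPM in Isl1_KO, and none of the 10 was at 0 in any library. Of the 6 skeletal muscle markers, Myod1 and Myf5 were at 0 in all 4 libraries, and Myog, Pax7 and Myh3 had at most 7 counts. Only Acta1 was tested, at 16.8 and 13.6 CPM in control and 11.1 and 13.7 CPM in Isl1_KO. The summed fibroblast markers were at 2186 and 2134 CPM in control and at 1369 and 499 CPM in Isl1_KO, and the smooth muscle markers were at 2635 in both control libraries against 2286 and 797 CPM. The second Isl1_KO library was thus the lower one for these mesenchymal markers. Of the 7 blood markers 6 were tested, and Runx1 rose (70.4 and 71.9 against 102 and 110 CPM, log2 fold change 0.57, adjusted p 0.0335 in edgeR). Gata1, Tal1 and Gfi1b were at log2 fold changes of 0.85, 0.93 and 0.90 and the embryonic globins Hbb-bh1 and Hba-x at -1.51 and -2.13, none of them past the threshold. The part of the progenitor, cardiomyocyte, mesenchymal and blood markers in the results below was not tested. In a bulk library, fewer cells of a type and less RNA per cell cannot be told apart. The 4 Y-linked genes examined summed to 65.7 and 62.2 CPM in control and to at most 0.0868 CPM in Isl1_KO, so the clones differed in more than Isl1.

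Of the 10 splicing regulators, 2 fell in Isl1_KO and none rose. These were Rbm24 and Rbm20, both of which act on titin, while Rbm38, a paralogue of Rbm24, and the CELF protein Celf1 stayed at nearly equal levels. Over all tested genes, 2.45% were called at an adjusted p under 0.05 in the quasi-likelihood test of edgeR, 1.94% lower and 0.503% higher. The count of 2 regulators became 0 without control replicate 1, 1 without control replicate 2 and 6 without either Isl1_KO library. These fits called 0.0629%, 0.134%, 49.8% (without Isl1_KO replicate 1) and 33.0% (without Isl1_KO replicate 2) of all tested genes. In the fits without an Isl1_KO library the control pair alone set the spread, and Mbnl1, Mbnl2 and Qk passed the threshold besides Rbm24 and Rbm20, with Rbfox2 (without Isl1_KO replicate 1) or Celf2 (without Isl1_KO replicate 2) as the sixth. No regulator was higher at an unadjusted p under 0.05, and DESeq2 called none higher at an adjusted p under 0.05. In 8 of the 10 genes both Isl1_KO libraries lay below both control libraries, as they did in 29.0% of all tested genes, and in no regulator did both lie above, against 29.1% of all genes. The median log2 fold change of the 10 was -0.31 beside -0.0027 over all tested genes.

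**Figure D1:**
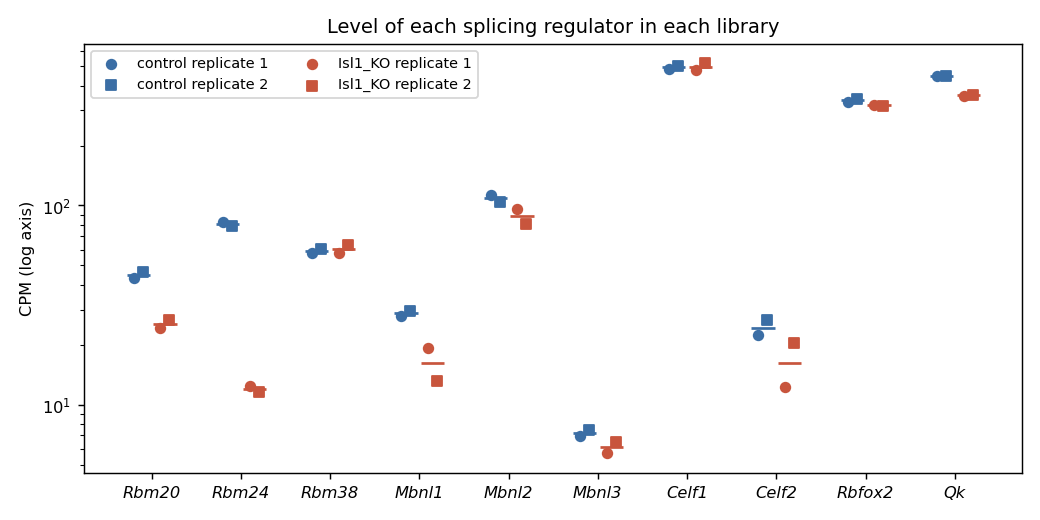
Level of each of the 10 splicing regulators in CPM on a log axis, one point per library, with horizontal lines at the mean of each group of 2 libraries. Rbm24 shows the widest gap, from 79.0 CPM or more in control to 12.4 CPM or less in Isl1_KO, whereas the points of Rbm38 and Celf1 overlap.

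Rbm24 (chromosome 13, 46513669 to 46526459, plus strand, NCBIM37) is an RNA-binding protein with a single RNA recognition motif that is enriched in heart and skeletal muscle. Its raw counts were 726 and 722 in control against 161 and 133 in Isl1_KO, whose libraries were deeper. Scaled by library size its level was 82.4 and 79.0 CPM in control and 12.4 and 11.5 CPM in Isl1_KO. Replicates lay close together in both groups and the groups were far apart, with means of 80.7 ± 2.41 and 12.0 ± 0.592 CPM (SD, n = 2 each). This was a log2 fold change of -2.75 with SE 0.0995 (edgeR adjusted p 0.00103), which is 6.74-fold lower. Ordered by log2 fold change, Rbm24 took place 97 from the lower end among the 12715 tested genes.

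Rbm20 (chromosome 19, 53751796 to 53941570, plus strand), whose mutations cause dilated cardiomyopathy through missplicing of titin, also fell, but less. Its raw counts were 383 and 425 in control against 316 and 305 in Isl1_KO, or 43.5 and 46.5 against 24.3 and 26.5 CPM. Both Isl1_KO libraries lay well below both control libraries, although the raw counts differed less, the Isl1_KO libraries being deeper. The means were 45.0 ± 2.14 and 25.4 ± 1.54 CPM (SD, n = 2 each), 1.77-fold lower in Isl1_KO, and the log2 fold change was -0.83 with SE 0.105 (edgeR adjusted p 0.0329).

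Rbm38 (chromosome 2, 172845999 to 172860235, plus strand) is the closest paralogue of Rbm24 and acts on splicing and on the stability of messenger RNAs. It was at 57.9 and 60.3 CPM in control and at 57.7 and 63.1 CPM in Isl1_KO, so the groups overlapped. Its log2 fold change was 0.030 with SE 0.0857 (edgeR adjusted p 0.865), and the 95% interval from the fitted SE ran from -0.19 to 0.25 (log2). This interval lies apart from that of Rbm24, which ran from -3.01 to -2.50. Per transcript length, in the RPKM of the deposited table, a read density scaled by transcript length and library size, Rbm24 made up 43.9% and 41.9% of the summed level of the pair in control and 10.5% and 9.14% in Isl1_KO. In group means this share was 42.9% ± 1.44 and 9.84% ± 0.989 (SD, n = 2 each). The 2 libraries of a group thus differed by far less than the groups did, but with 2 against 2 an exact permutation test of 1 value cannot give a two-sided p below 0.333.

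The call for these 2 genes depended on which library was left out, in fits where the lone library was taken to vary like the other group. Without control replicate 1 the log2 fold change of Rbm24 was -2.72 (edgeR adjusted p 0.0509) and that of Rbm20 was -0.87 (adjusted p 0.404), and without control replicate 2 that of Rbm20 was -0.78 (adjusted p 0.471), so the sizes held while these calls were lost. Without control replicate 2 the value of Rbm24 was -2.78 (adjusted p 0.0429).

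The sequences upstream of Rbm24 and Rbm38 are shown because these paralogues differed most in their change. They are the 250 bases before the annotated start in RefSeq on GRCm38.p6, 5′ to 3′ on the plus strand, with E boxes in capitals, chr13:46418050-46418299 for Rbm24 and chr2:173021652-173021901 for Rbm38.
Rbm24: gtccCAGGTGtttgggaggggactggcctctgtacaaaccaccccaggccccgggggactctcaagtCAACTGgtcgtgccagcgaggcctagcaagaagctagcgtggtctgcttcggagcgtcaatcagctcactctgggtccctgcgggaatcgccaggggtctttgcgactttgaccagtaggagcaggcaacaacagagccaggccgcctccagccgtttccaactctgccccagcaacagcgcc
Rbm38: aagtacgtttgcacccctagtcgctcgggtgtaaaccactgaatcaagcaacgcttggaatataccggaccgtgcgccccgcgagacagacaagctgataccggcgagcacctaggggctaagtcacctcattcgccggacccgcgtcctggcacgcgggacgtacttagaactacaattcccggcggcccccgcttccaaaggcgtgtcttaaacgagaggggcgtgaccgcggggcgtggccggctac

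Both strands were searched for the letters CTAATG, a homeodomain site, and CANNTG, the E box bound by basic helix-loop-helix factors. The other searches were for AGATAA, which GATA factors bind, for CACTT, an Nkx site, and for the TATA box with the letters TATAAA. The Rbm24 window held 2 E boxes, starting 246 and 183 bases before the gene's start, and none of the other motifs. The Rbm38 window held none of the 5 motifs. Among 32841 promoter windows of this length, 66.2% held an E box, 40.7% the Nkx letters, 12.4% a TATA box, 9.99% the GATA letters and 6.36% the homeodomain letters, so the E boxes of Rbm24 are a common feature. Both windows were rich in G and C, at 62.4% for Rbm24 and 61.6% for Rbm38 against a median of 52.4% over all windows. Of the 10 regulators 8 had a promoter in the table, with Rbm20 and Rbfox2 missing.

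The 3 muscleblind genes all had lower levels in Isl1_KO, but none of them passed the threshold. They encode zinc-finger proteins that are sequestered by repeat RNA in myotonic dystrophy. Mbnl1 (chromosome 3, 60277032 to 60433670) was at 27.9 and 29.4 CPM in control and at 19.3 and 13.2 CPM in Isl1_KO. The Isl1_KO libraries were both lower, but they were also far from each other, with a coefficient of variation of 26.6% in Isl1_KO against 3.72% in control. The log2 fold change of Mbnl1 was -0.82 with SE 0.199 (edgeR adjusted p 0.106), close to the value of Rbm20 but with a larger error. It was -1.12 without Isl1_KO replicate 1 and -0.57 without Isl1_KO replicate 2, past the threshold in both fits, which called 49.8% and 33.0% of all genes. Without control replicate 1 or 2 it was -0.86 and -0.78, with adjusted p of 0.632 and 0.658 in edgeR.

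Mbnl1 was past the threshold in DESeq2, at -0.81 with an adjusted p of 0.0494. That test called 4.43% of the 13587 genes with an adjusted p. Mbnl1 also met the criteria of the study in that test, an absolute log2 fold change over 0.58 with an unadjusted p under 0.05. These criteria were met by 3 of the 10 regulators, Rbm24, Rbm20 and Mbnl1, each of them lower in Isl1_KO, and by 5.89% of all 16855 genes with at least 1 count (4.57% for lower genes).

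Mbnl2 (chromosome 14, 120674891 to 120830919) had the highest RPKM of the muscleblind genes, and was at 113 and 104 CPM in control and 96.4 and 80.6 CPM in Isl1_KO. Its log2 fold change was -0.29 with SE 0.108 (edgeR adjusted p 0.197), and it was -0.43 without Isl1_KO replicate 1 and -0.17 without Isl1_KO replicate 2. Mbnl3 (chromosome X, 48470446 to 48559709), which is known from proliferating muscle precursors, had the lowest RPKM of the 10 regulators, with raw counts of 61 and 68 in control and 74 and 75 in Isl1_KO. It was at 6.92 and 7.44 against 5.69 and 6.51 CPM, and its log2 fold change of -0.24 with SE 0.186 (edgeR adjusted p 0.486) had an interval from -0.71 to 0.24. By RPKM, Mbnl2 supplied 80.2% ± 1.62 of the summed muscleblind level in control and 84.6% ± 0.896 in Isl1_KO (SD, n = 2 each). Mbnl1 supplied 17.1% ± 1.34 and 12.4% ± 1.60, and its shares in single libraries, 16.1% and 18.04% against 13.5% and 11.2%, did not overlap.

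The CELF genes differed in level and in spread. Celf1 (chromosome 2, 90780539 to 90859654), which binds GU-rich RNA and opposes muscleblind proteins on many exons, was at 486 and 500 CPM in control and 481 and 516 CPM in Isl1_KO. The groups overlapped and the log2 fold change was 0.016 with SE 0.0707 (edgeR adjusted p 0.913), with an interval from -0.16 to 0.20. Celf2 (chromosome 2, 6460751 to 7002348) was at 22.2 and 26.5 CPM in control and 12.2 and 20.3 CPM in Isl1_KO. Its log2 fold change, -0.59 with SE 0.262 (edgeR adjusted p 0.255), came with the largest spread of the 10 regulators, a coefficient of variation of 35.1% in Isl1_KO and 12.3% in control. Leaving out Isl1_KO replicate 1 moved the value of Celf2 to -0.27, and leaving out Isl1_KO replicate 2 moved it to -0.997, past the threshold in a fit that called 33.0% of all genes. By RPKM, Celf1 held 95.9% ± 0.398 of the summed level of the pair in control and 97.3% ± 0.812 in Isl1_KO (SD, n = 2 each).

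**Figure D2:**
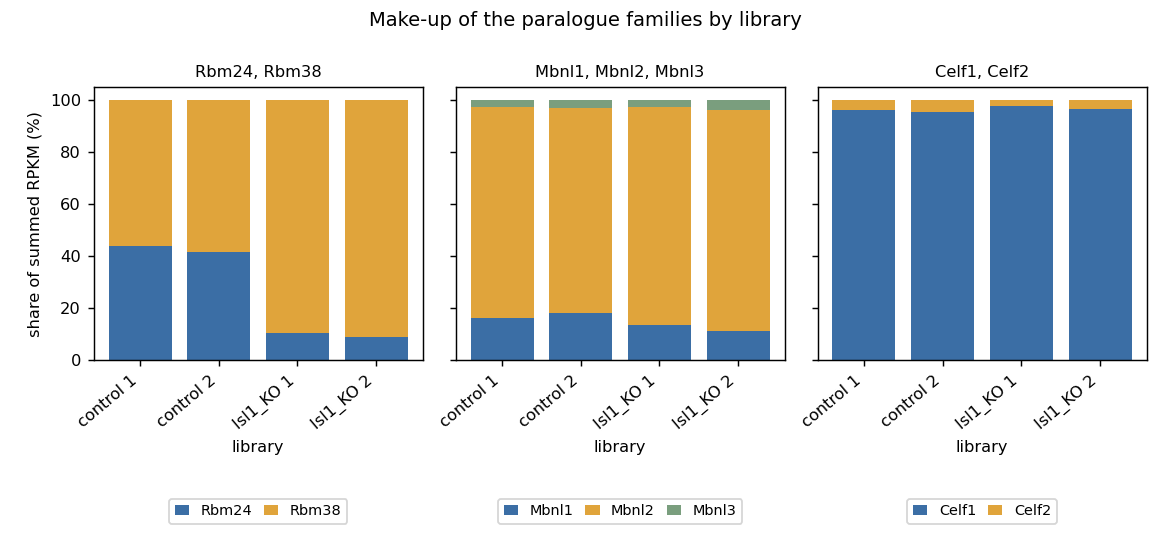
Share of each paralogue in the summed RPKM of its family, in percent, as one stacked bar per library for the pair of Rbm24 and Rbm38, the muscleblind genes and the CELF genes. Rbm24 takes 41.9% or more in the control libraries and 10.5% or less in the Isl1_KO libraries, while Mbnl2 and Celf1 hold most of their families in all 4 libraries.

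Qk (chromosome 17, 10399336 to 10512245), the Quaking protein that binds bipartite RNA motifs and acts in heart, smooth muscle and glia, showed a small difference with very little spread. It was at 448 and 447 CPM in control and at 356 and 359 CPM in Isl1_KO. The replicates agreed to within a coefficient of variation of 0.219% and 0.681%, and the log2 fold change was -0.32 (SE 0.0617, 1.25-fold lower). After adjustment over all genes Qk missed the threshold (edgeR adjusted p 0.0715, unadjusted p 0.00298). Rbfox2 (chromosome 15, 76909420 to 77137483), which recognises the letters GCAUG in introns beside regulated exons, was at 332 and 344 CPM in control and 320 and 316 CPM in Isl1_KO. Its log2 fold change was -0.087 with SE 0.0636 (edgeR adjusted p 0.458), with an interval from -0.25 to 0.074. At an unadjusted p under 0.05, 5 of the 10 regulators were lower in Isl1_KO, beside 12.2% of all tested genes.

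**Figure D3:**
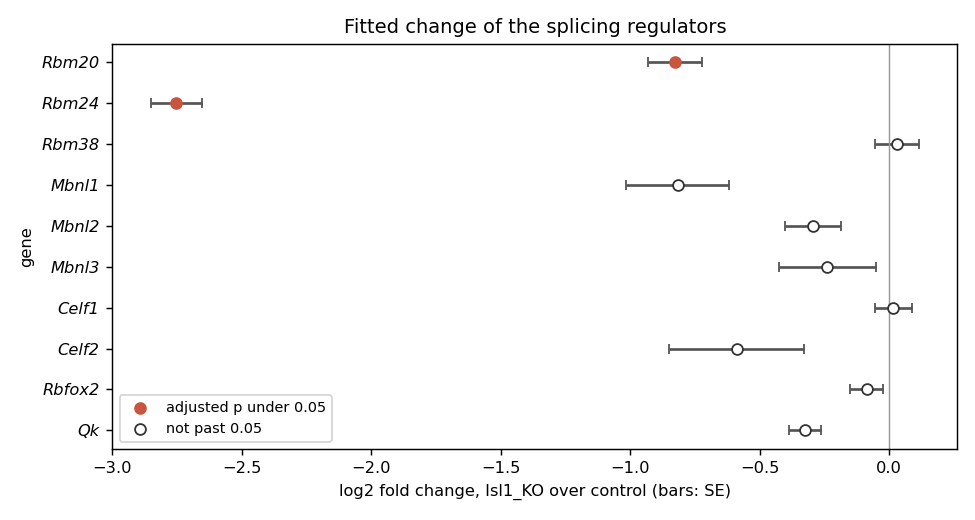
Fitted log2 fold change of each splicing regulator, Isl1_KO over control, with bars of 1 SE, where filled points passed an adjusted p of 0.05. Rbm24 at -2.75 and Rbm20 at -0.83 are the filled points, and Mbnl1 at -0.82 is unfilled with a wider bar.

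Levels of different genes can be compared only per transcript length, for which the deposited RPKM of the entry with most counts was used. In control the order was Qk (54.2 RPKM), Celf1 (35.7), Rbfox2 (27.2), Rbm38 (18.8), Rbm24 (14.1), Mbnl2 (13.5), Rbm20 (3.86), Mbnl1 (2.87), Celf2 (1.52) and Mbnl3 (0.460), each as the mean of 2 libraries. The control libraries of neighbours in this order did not overlap, except those of Rbm24 (13.8 and 14.4 RPKM) and Mbnl2 (12.9 and 14.1 RPKM). In Isl1_KO the order was kept apart from Rbm24, which at 2.13 RPKM had dropped to just below Rbm20 at 2.22 RPKM (libraries at 2.08 and 2.35), and these neighbours overlapped. With these entries, the regulators with the highest levels in control, Qk, Celf1, Rbfox2 and Rbm38, were also the highest in Isl1_KO. The place of Qk depended on the entry. Its entries of 6708 and 5428 bases were at 14.5 to 16.5 RPKM in control and 10.9 to 13.5 RPKM in Isl1_KO. Both lay below Rbm38 in each group.

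Several of the regulators had more than 1 transcript entry, and the share of reads on the other models was compared as a coarse view of isoforms. Entries of a gene share exonic reads, so they cannot be tested against each other. Rbm20, Rbm24 and Rbm38 had 1 entry each, while Celf2 had 10, Rbfox2 had 9 and Mbnl1 had 7. For Rbfox2 the entry with the fewest counts held 65.1% and 65.0% of the counts of the kept entry in control and 64.7% and 63.7% in Isl1_KO. For Celf1 the same share was 79.7% and 78.1% against 77.5% and 77.3%. The 3 entries of Qk differed most, with far more reads on the kept entry (4648 bases) than on the longer others. The entry of 6708 bases held 39.1% and 38.6% of its counts in control and 36.4% and 38.3% in Isl1_KO. Control replicate 2 and Isl1_KO replicate 2 were nearly equal in this share. For Mbnl1 the entry with the fewest counts held 90.2% and 86.6% in control and 85.3% and 84.9% in Isl1_KO. For Mbnl2, Mbnl3 and Celf2 the groups overlapped. How often such shares separate the groups over all genes with several entries was not examined, so no change of isoforms is read from them.

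Other regulators of splicing were examined to see whether the difference extended to the wider machinery. A further list of 34 regulators, called tissue-restricted here, also held broadly expressed genes such as Ptbp1 and Elavl1. Of its 28 tested genes 1 fell and none rose, while 1.94% of all tested genes fell. In 15 of the 28 both Isl1_KO libraries lay below both control libraries, beside 29.0% of all tested genes. In 6 both lay above, beside 29.1% of all tested genes. The list had 19 negative and 9 positive log2 fold changes, with a median of -0.11. The regulator that fell was Msi2, an RNA-binding protein of stem and progenitor cells. It was at 164 and 165 CPM in control and 107 and 108 CPM in Isl1_KO (log2 fold change -0.61, SE 0.0609, adjusted p 0.0173 in edgeR). Without control replicate 1 the value of Msi2 was -0.61 and without control replicate 2 it was -0.61, past the threshold in neither fit. Among relatives of the regulators, Celf3 had raw counts of 35 and 29 against 21 and 8 in Isl1_KO (log2 fold change -1.60, SE 0.430, adjusted p 0.123 in edgeR). Rbfox1 had raw counts of 14 and 20 against 19 and 8 (-0.79, SE 0.455, edgeR adjusted p 0.359), Celf5 had 37 and 28 against 36 and 32 (-0.39, SE 0.268, adjusted p 0.437) and Celf4 had 12 and 13 against 14 and 34 (0.51, SE 0.561, adjusted p 0.629). Rbfox3 and Celf6 had at most 7 counts in a library and were not tested. Ptbp1, a repressor of muscle and neuronal exons, was at a log2 fold change of 0.15 with SE 0.0708 (edgeR adjusted p 0.280) and its paralogue Ptbp2 at -0.12 (SE 0.0733, adjusted p 0.365).

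General splicing factors showed small differences, mostly of the opposite sign. Of 15 SR proteins, which promote exon use through exonic enhancers, 1 rose and none fell, beside 0.503% of all tested genes that rose. The SR gene that rose was Srsf5, at 209 and 206 CPM in control and 289 and 277 CPM in Isl1_KO (log2 fold change 0.44, SE 0.0641, adjusted p 0.0410 in edgeR). Without control replicate 1 the value of Srsf5 was 0.45 and without control replicate 2 it was 0.43, past the threshold in neither fit. With reads summed over entries it was 0.44 with an adjusted p of 0.0505 in edgeR. Of 23 hnRNP proteins and 34 core spliceosome genes none was called in edgeR or DESeq2 at an adjusted p under 0.05, while 5 hnRNP and 16 core genes were higher, and 0 lower, at an unadjusted p under 0.05 in edgeR, beside 11.0% of all tested genes that were higher. Without Isl1_KO replicate 1, where 49.8% of all genes were called, the calls were 12 and 24, and without Isl1_KO replicate 2, with 33.0% of all genes called, they were 13 and 19. Of the 34 core genes 33 had a positive log2 fold change, with a median of 0.17 and a range from -0.020 to 0.33, and in 25 both Isl1_KO libraries lay above both control libraries. The hnRNP list had 22 of 23 positive values with a median of 0.070, and the SR list 13 of 15 with a median of 0.092. Over all tested genes 50.4% were below 0, and in 29.1% both Isl1_KO libraries lay above both control libraries. The genes of a list share libraries and are not independent, so these counts carry no test.

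**Figure D4:**
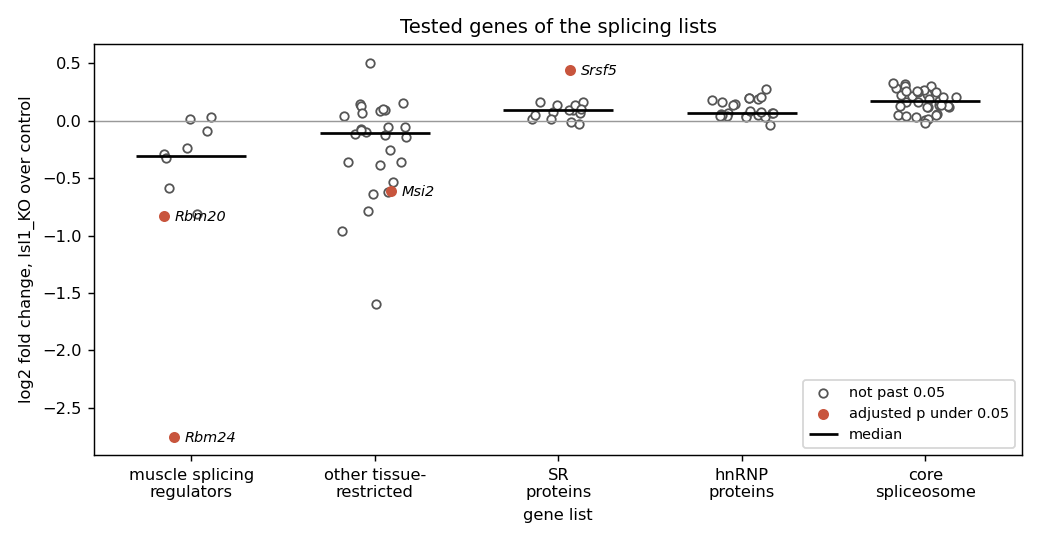
Log2 fold change, Isl1_KO over control, of every tested gene in 5 lists of splicing genes, with a line at the median of each list and filled points for genes past an adjusted p of 0.05. The muscle splicing regulators reach down to -2.75, whereas all 34 core spliceosome genes lie between -0.020 and 0.33.

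Transcripts known to be spliced by these regulators in muscle were taken from a list of 36 genes. The list was chosen with earlier results of these data known, so its counts carry no test. Of the 36 genes, 35 were tested, 8 fell and none rose, where 1.94% of all tested genes fell and 0.503% rose. Ttn and Tnnt2 are also on the list of cardiomyocyte markers. Ttn, the giant protein whose spring region Rbm20 shortens, was at 386 and 454 CPM in control and 3.54 and 2.95 CPM in Isl1_KO (log2 fold change -7.01, SE 0.150, adjusted p 0.00011 in edgeR). Tnnt2, whose fetal exon is set by muscleblind and CELF proteins, was at 215 and 222 CPM in control and 13.4 and 7.89 CPM in Isl1_KO (log2 fold change -4.35, SE 0.221, adjusted p 0.00277 in edgeR). Ldb3, a Z-disc protein, was at 50.2 and 52.9 against 4.61 and 1.74 CPM (-3.99, SE 0.355, adjusted p 0.0128), and Nebl at 20.7 and 21.4 against 1.31 and 1.56 CPM (-3.87, SE 0.187, adjusted p 0.00277).

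Ryr2, the calcium release channel of the sarcoplasmic reticulum, was at 93.5 and 101 CPM in control and 20.1 and 11.6 CPM in Isl1_KO (log2 fold change -2.61, SE 0.248, adjusted p 0.0150 in edgeR). The 27 tested targets that were not called include broadly expressed genes, such as Tpm1 at -0.045 (SE 0.190), which was at 2518 and 2536 CPM in control and 2931 and 1966 CPM in Isl1_KO. The median of the 35 targets was -0.28, beside -0.0027 for all tested genes. Of the 8 called targets, 1 was called without control replicate 1 and 2 without control replicate 2, against 28 and 23 of the 35 targets without Isl1_KO replicate 1 or 2, in fits that called 49.8% and 33.0% of all genes. The counts give the amount of each transcript and say nothing of which exons were used.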

How the data were processed

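Poly(A) RNA-Seq libraries of sorted CPCs were analysed from the deposited transcript table. Sample titles name a knockout and the design text a knockdown, and the titles were used for grouping. Per the methods of the study, the authors mapped reads to mm9 with STAR and used HOMER to count reads in the exons of RefSeq transcripts, both strands together. Their versions are not given in the sources used here. The deposited counts are whole reads, and entries of 1 gene share reads. The RPKM columns were computed by the authors with edgeR and were used for levels between genes. The authors also deposited their own DESeq2 comparison (log2 fold changes and standard errors, p-values, the Wald score and a mean normalised signal), which was not used.

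Each symbol was represented by the entry with most counts in all. Counts were tested in edgeR 4.0.16 under R 4.3.3 by quasi-likelihood (TMM, filterByExpr, no covariate, two-sided). Benjamini-Hochberg adjustment covered 12715 genes, and the threshold was 0.05. The steps were tested on simulated data. DESeq2 1.42.0 was an alternative. CPM used effective library sizes. A floor of 3 counts was between 0.231 and 0.341 CPM. Floors and intervals cover error within these libraries only. Positions are from GENCODE vM1 on NCBIM37, the assembly of mm9, where no exon of the 10 regulators overlaps another protein-coding gene and Qk has 2 models, of which the longer is given. Columns of per-sample values not matched to a sample numbered 0. Replicate numbers occur in both groups, so a block on them was an alternative. The regulators and lists were chosen with earlier results of these data known. The named genes were all 10 regulators, Isl1, up to 6 called genes of each other list, and Rbfox, CELF and Ptbp relatives. Of the genes so chosen, 1 is not reported here. Tpm1 was named after its values were seen. Figures were drawn with matplotlib 3.10.9 in Python 3.11.15.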

Additional observations from a re-analysis of the deposited data

How the results depend on the processing

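With 2 libraries in a group, the number of calls depended on which library set the spread. Of 12715 genes 311 were called. DESeq2 called 602, of which 305 were shared, the criteria of the study selected 993 in DESeq2, and 492 were called with no filter beyond 1 count. Leaving out 1 library gave from 8 (without control replicate 1) to 6337 genes (without Isl1_KO replicate 1), and in these fits the lone library is assumed to vary like the other group. The ranges over the 4 libraries left out were 0 to 6 calls for the 10 regulators, 0 to 13 for other tissue-restricted regulators (2 by the criteria of the study), 0 to 8 for SR proteins, 0 to 13 for hnRNP proteins, 0 to 24 for the core spliceosome and 1 to 28 for target transcripts. SR proteins had 0 calls with entries summed and by the criteria of the study.

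The log2 fold changes themselves moved less. Leaving out 1 library at a time, Isl1 ranged from -4.75 to -4.08, Rbm20 from -0.89 to -0.77, Rbm24 from -2.80 to -2.70, Mbnl1 from -1.12 to -0.57, Mbnl2 from -0.43 to -0.17, Mbnl3 from -0.34 to -0.14, Celf2 from -0.997 to -0.27, Rbfox2 from -0.11 to -0.062 and Qk from -0.33 to -0.32. The sign turned for Rbm38 (-0.036 to 0.094), Celf1 (-0.036 to 0.067, and -0.0030 without control replicate 1) and Celf4 (-0.37 to 1.08), and the cause was not tested. Mbnl1 was at -0.81 with an adjusted p of 0.0494 in DESeq2. The numbers of called regulators other than in these fits stayed within 1.5 times of 2.

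Over 12715 genes the deviations of same-numbered samples had a correlation of 0.00947. With 2 libraries in a group both pairs give the same value, so this is 1 value. Whether same-numbered samples shared a batch that affected some genes was not tested. A fit with the replicate number as a block called 454 genes, 2 of the 10 regulators and 0 SR proteins, where Srsf5 had an adjusted p of 0.0552.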
